A study of Mus musculus with 2 samples.

Results

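The genes of antigen presentation by MHC class II were followed across the leukocytes of naive and bleomycin-injured mouse lung. They are 10 genes chosen by name, of 24785 gene columns over both tables of the series: the chain genes H2-Aa, H2-Ab1 and H2-Eb1, the invariant chain gene Cd74, the peptide editor genes H2-DMa, H2-DMb1 and H2-DMb2, the genes of its inhibitor H2-Oa and H2-Ob, and the transactivator gene Ciita. All 10 had a column in both tables. The material was viable leukocytes, gated on CD45, from the lungs of wild-type C57BL/6N mice, and single-cell RNA libraries were made from them, 1 for each of 2 groups. For the BLM library the lungs were taken 15 days after intratracheal bleomycin, whose injury is followed by fibrosis, and for the naive library from untreated mice. The cells of 3 mice were pooled in each library and could not be told apart here, and the submitters' headers give different dates for the 2 pipeline runs, so library, run and treatment cannot be told apart. No test between the groups was possible, and every interval below is a 95% interval that covers counting error only, not the spread between mice.

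MHC class II molecules carry peptides from endocytosed proteins to the surface, where CD4+ T cells read them. The invariant chain encoded by Cd74 fills the groove of newly made class II and is cut down to a fragment called CLIP. H2-DM, an alpha chain from H2-DMa with a beta chain from H2-DMb1 or H2-DMb2, exchanges CLIP for peptide, and H2-O holds H2-DM back. CIITA, the product of Ciita, binds no DNA itself but joins the RFX, NF-Y and CREB factors that sit on the X and Y boxes of class II promoters. H2-Aa and H2-Ab1 encode I-A. C57BL/6 mice carry the b haplotype, which lacks a functional H2-Ea gene and therefore shows no I-E on the surface although H2-Eb1 is transcribed. In lung, dendritic cells and B cells carry class II at rest, alveolar macrophages carry little, and interstitial macrophages carry more.

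Of the members, 8 lie in 224.3 kb of chromosome 17 (GRCm38, GENCODE vM21), from H2-Oa at the start (34092340) to H2-Eb1 at the end (34316674), and Ciita lies on chromosome 16. The RefSeq promoter table (GRCm38.p6, 250 bases before to 50 after a gene's start) had entries for H2-Aa, H2-Eb1, H2-DMa, H2-DMb1, H2-DMb2, H2-Oa and H2-Ob, and none was matched for H2-Ab1, Cd74 and Ciita. The letters AAC, then 20 to 30 bases, then TGATTGG were found on the gene's own strand in 6 of these 7 genes, a spacing chosen after the sequences were seen. Counted on either strand, a wider rule, they were in 346 of 32851 promoters of the table (1.05%), while TGATTGG alone was in 7.82%. AAC stands for the core of the X box and TGATTGG for the Y box, and neither match shows binding. Neither of the 2 H2-DMa promoters in the table held the pair. The stretches below overlap no annotated exon of their genes, though that of H2-DMb2 lies in an intron of a longer transcript. They are shown for the members where the pair lay outside such exons, and no link between the letters and the RNA levels was tested. Capitals mark AAC and TGATTGG, and each is written 5′ to 3′ on the strand of its gene.

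H2-Aa, chr17:34287852-34287917, minus strand: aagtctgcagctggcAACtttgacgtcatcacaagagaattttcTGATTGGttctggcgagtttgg

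H2-Eb1, chr17:34305763-34305827, plus strand: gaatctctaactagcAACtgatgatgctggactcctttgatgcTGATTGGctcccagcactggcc

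H2-DMb2, chr17:34145113-34145178, plus strand: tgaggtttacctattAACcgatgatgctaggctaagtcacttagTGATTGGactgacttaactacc

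H2-Ob, chr17:34238805-34238867, plus strand: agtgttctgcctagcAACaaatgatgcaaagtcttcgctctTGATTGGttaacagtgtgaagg

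The gap between the letters was 26 bases in H2-Aa and H2-DMb2, 25 in H2-Eb1 and 23 in H2-Ob. The pair was also present in H2-DMb1 and H2-Oa, where it reached into an annotated first exon and is not printed.

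After filtering, 4391 BLM cells and 3808 naive cells were kept, with 21199949 and 16890796 UMIs. The members were left out of the genes used for clustering, so they did not define the clusters in which they were measured. The 18 clusters were named by marker lists, and each name below stands for cells like that type: B cells, cDC1, cDC2, migratory dendritic cells, alveolar macrophages, interstitial or recruited macrophages, classical and nonclassical monocytes, neutrophils, T cells, NK cells and ILC2. A small cluster led by Sparc, Eln and Tm4sf1 is called by these genes, since it was led by stromal and endothelial genes in a CD45+ sort. A class was compared where each library held at least 50 of its cells, which left 11. The alveolar class kept Chil3 at 10030 CPM (UMIs per 1000000 UMIs of the same cells) in BLM and 11348 in naive, but Fabp1 was at 3.65 and 388 CPM, and Spp1 at 5916 and 240 CPM. When the libraries were not integrated, the alveolar cluster held no BLM cell and the BLM cells joined the interstitial or recruited cluster, so which BLM cells are called alveolar rests on the integration. The libraries shared 22 cell barcodes.

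The dendritic classes cDC1 and cDC2 carried the most class II RNA. Summed over the 10 members, it made up 4.05% of all UMIs of cDC1 in BLM and 4.97% in naive, and 3.97% and 5.13% of those of cDC2. Migratory dendritic cells, with 16 cells in naive, were at 1.68% and 2.78%. B cells stood at 2.18% and 2.16%, interstitial or recruited macrophages at 1.39% and 2.77%, and alveolar macrophages at 0.536% and 0.161%. Nonclassical monocytes had 0.236% and 0.353%, and classical monocytes 0.153% and 0.412%. T cells, which make little class II in the mouse, had 0.0472% and 0.0827%, neutrophils 0.0659% and 0.0948%, and NK cells 0.0593% and 0.0744%. These last 3 classes are taken as the level that free RNA can give, and it was higher in the naive library in each of them. T cells had a median of 2402 UMIs per cell in BLM and 2511 in naive, against 12470 and 9946 in alveolar macrophages. Whether free RNA takes the same share of UMIs in cells of such different depth was not tested.

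**Figure D1:**
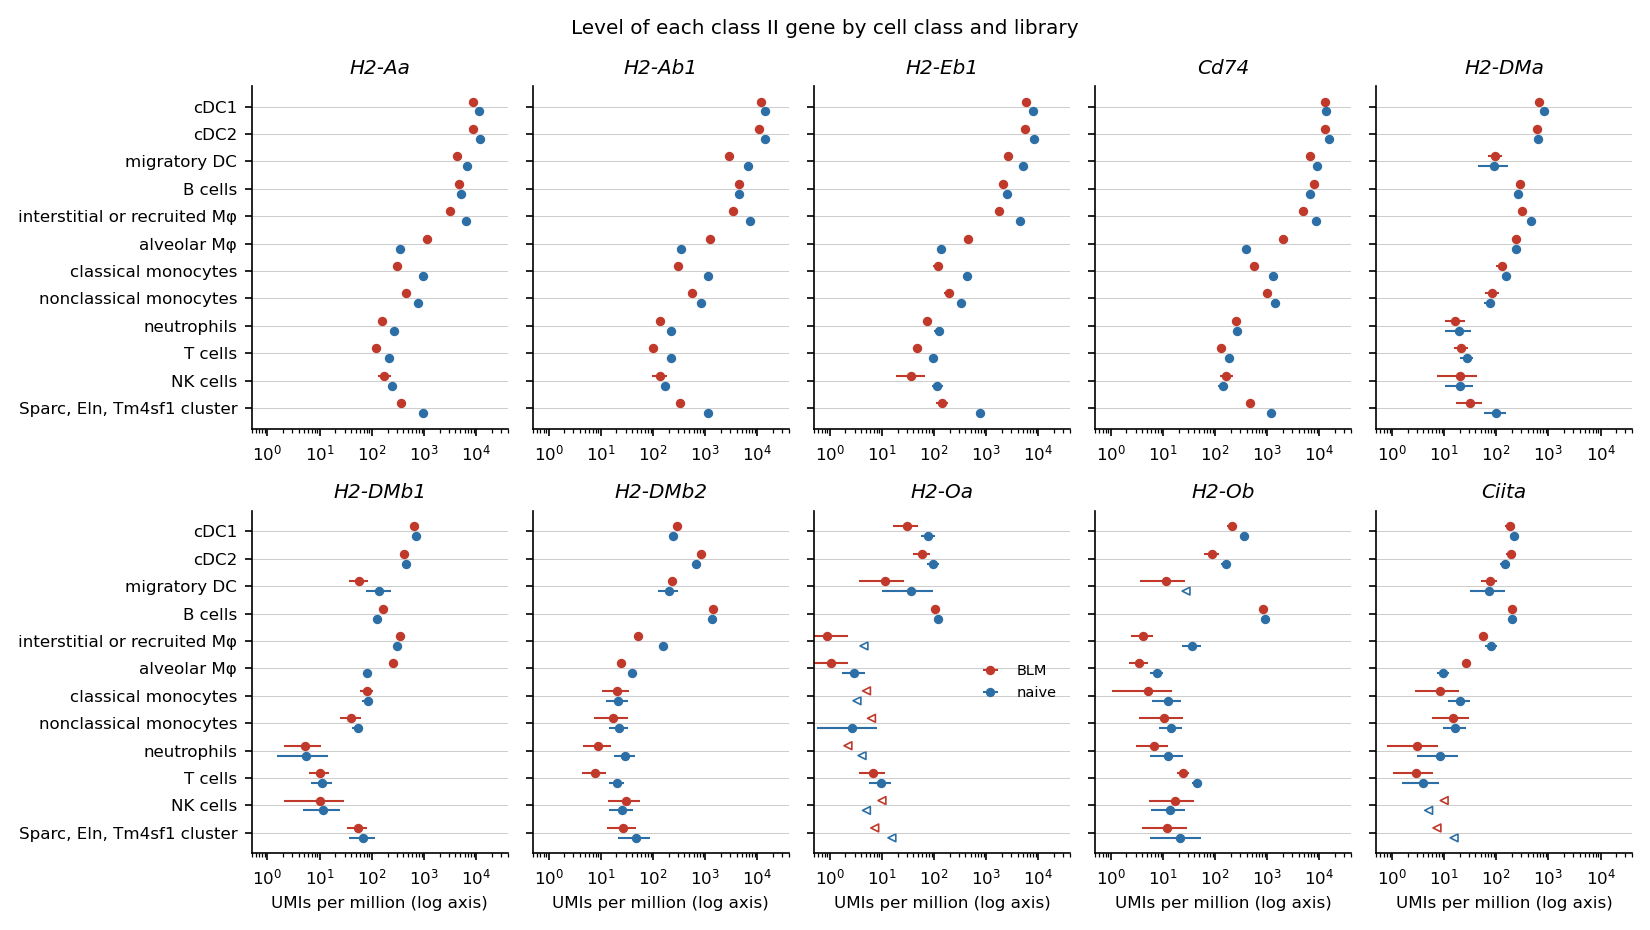
Level of each of the 10 class II genes (CPM, log axis) in 12 cell classes, in the BLM (red) and naive (blue) library, with 95% counting intervals; open triangles stand at the level of 3 UMIs for values under 3 UMIs. Alveolar macrophages sit to the right in BLM for H2-Aa, H2-Ab1, H2-Eb1, Cd74, H2-DMb1 and Ciita, and most other classes sit to the right in naive for the chain genes.

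Between the libraries, the sum of the members was lower in BLM in 9 of 11 classes. The exceptions were alveolar macrophages, where it was 5356 CPM in BLM and 1611 in naive, for a log2 ratio of 1.73 (1.70 to 1.77), and B cells, with 21786 and 21610 CPM and a log2 ratio of 0.01 (-0.01 to 0.03). In interstitial or recruited macrophages it was 13926 CPM in BLM and 27718 in naive, for a log2 ratio of -0.99 (-1.02 to -0.97). The same sum was 1528 and 4125 CPM in classical monocytes, for a log2 ratio of -1.43 (-1.54 to -1.33). With the T cell level subtracted from both libraries, the log2 ratios were 2.64, -0.999 and -1.64 in alveolar macrophages, interstitial or recruited macrophages and classical monocytes. The ratio in classical monocytes was -0.74 at a mitochondrial limit of 10% and -0.78 with the members kept among the clustering genes, and that in interstitial or recruited macrophages was -1.51 without integration. That last value compares a different set of cells, a cluster of 934 BLM and 27 naive cells with another of 84 and 67. The sum was lower by less in cDC1 (-0.29), cDC2 (-0.37) and nonclassical monocytes (-0.58), all as log2 ratios. The ratio was -0.81 (-0.93 to -0.69) in T cells, -0.52 (-0.67 to -0.38) in neutrophils and -0.33 (-0.59 to -0.07) in NK cells. The level taken as free RNA was thus lower in BLM, by an amount that depends on the class used. Free RNA itself was not measured, and its part in the other classes was not tested beyond the values given below. Over all kept cells the sum was 8943 CPM in BLM and 9606 in naive. With all macrophages pooled, cycling macrophage-like cells included, it was 8591 and 5299 CPM, for a log2 ratio of 0.70. The direction in macrophages thus depends on the class. Some of the cycling cells carried dendritic genes, as given below.

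Macrophages of all kinds held 57.8% of the class II UMIs of the BLM library and 24.8% of those of the naive library, with 24.2% and 19.8% of the cells. They include a cycling macrophage-like class of 99 BLM and 68 naive cells. In it, 10 BLM and 20 naive cells formed a sub-cluster led by dendritic genes such as Xcr1 and Flt3. These held 4309 of the 109622 macrophage UMIs of the members in BLM and 10249 of 40257 in naive. B cells held 15.3% and 27.2%, and cDC1 with cDC2 came to 10.1% and 9.97% in BLM against 17.2% and 20.7% in naive. Since the sort, the pooling and the filters set the share of each class, these are shares of the libraries, not of the lung.

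Among single members, a value counted as past 2-fold where the log2 ratio was 1 or more, or -1 or less, with 20 or more UMIs over both libraries. Of 110 values (10 members in 11 classes), 93 had enough UMIs. Of these, 6 were past 2-fold higher in BLM (6.45%), against 4.66% of 78430 values over all genes, and 22 were past 2-fold lower (23.7%), against 7.27%. All 6 higher values were in alveolar macrophages. The lower values were 5 each in interstitial or recruited macrophages, classical monocytes and the Sparc, Eln and Tm4sf1 cluster, 2 each in alveolar macrophages and T cells, and 1 each in cDC1, neutrophils and NK cells.

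**Figure D2:**
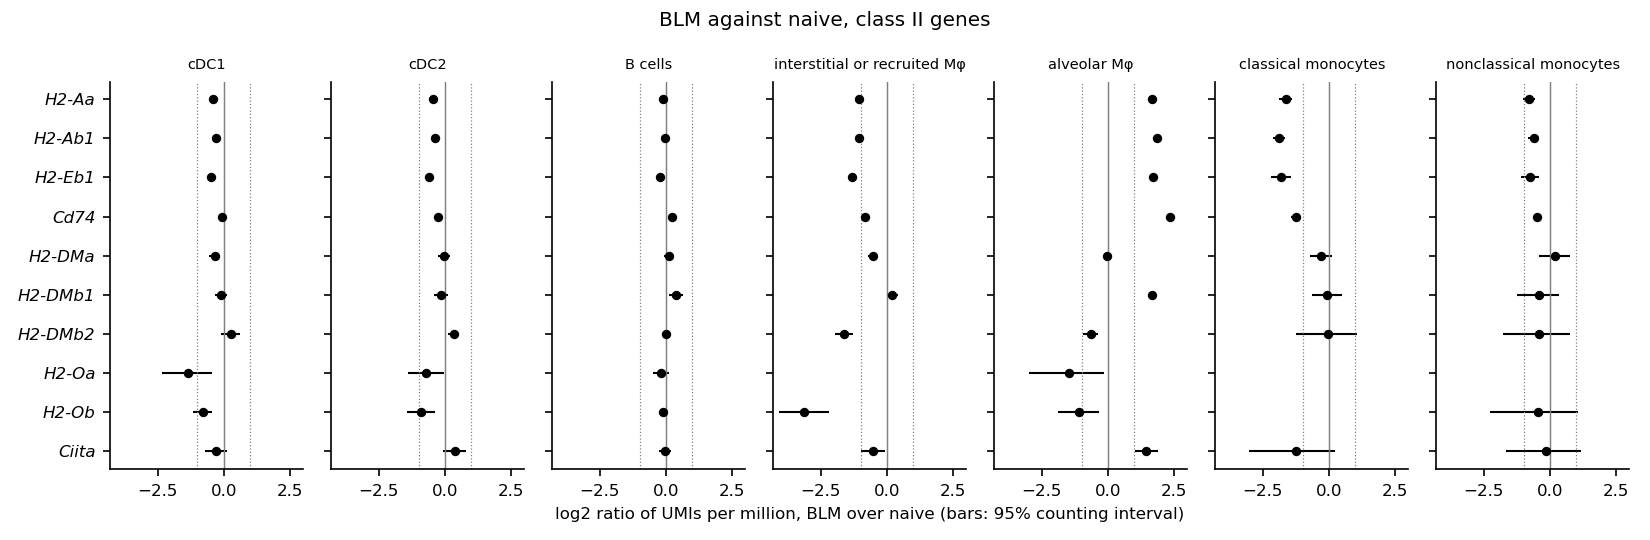
The log2 ratio of each member (CPM, BLM over naive) in 7 cell classes, with 95% counting intervals; dotted lines mark 2-fold, and values under 20 UMIs are not drawn. Alveolar macrophages hold points to the right for 6 members and near 0 for H2-DMa, and classical monocytes hold the chain genes and Cd74 to the left with the 3 H2-DM genes near 0.

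In alveolar macrophages all 3 chain genes were higher in BLM. H2-Ab1, which encodes the I-A beta chain, was at 1244 CPM (1217 to 1271) in BLM and 345 (330 to 360) in naive. H2-Aa, the I-A alpha chain gene, was at 1119 and 351 CPM, and H2-Eb1 at 443 and 137 CPM. Their log2 ratios were 1.85, 1.67 and 1.69, and no interval overlapped between the libraries. Naive alveolar macrophages stood at only 1.56 times the T cell level of their library for H2-Ab1 and 1.65 times for H2-Aa, against 12.6 and 9.13 times in BLM. As shares of UMIs, the chain genes of naive alveolar macrophages thus lay close to the T cell level. Counted by cells, naive H2-Ab1 had 2100 UMIs in 586 alveolar macrophages and 395 UMIs in 671 T cells. Whether free RNA grows with the depth of a cell was not tested. In this class 6 of 10 members tested were past 2-fold higher (6.27% of 10575 genes tested were) and 2 were past 2-fold lower (9.98% were). The 2 lower ones were H2-Oa and H2-Ob, which lay below the T cell level in both libraries.

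In interstitial or recruited macrophages, monocytes and dendritic cells the chains were lower in BLM. H2-Ab1 was at 3437 CPM in BLM and 7241 in naive interstitial or recruited macrophages, for a log2 ratio of -1.08 (-1.12 to -1.03). H2-Aa had 3151 and 6514 CPM there and H2-Eb1 1728 and 4354, the largest difference of the 3 at -1.33. After median of ratios scaling H2-Aa and H2-Ab1 were at -0.90 and -0.93, short of 2-fold. In this class 5 of 9 members tested were past 2-fold lower (11.2% of genes were) and none was higher (8.03% were). The 7 cDC2 markers summed to 678 CPM in BLM and 1808 in naive cells of this class, and none of them was at 0. Without cells that held a UMI of a dendritic or B cell marker, the log2 ratio of the member sum was -0.94. Classical monocytes had H2-Ab1 at 308 and 1135 CPM, H2-Aa at 310 and 962, and H2-Eb1 at 120 and 422. Their log2 ratios were -1.88, -1.64 and -1.81, and 5 of 8 members tested were past 2-fold lower there (4.99% of genes were lower and 3.83% higher). These BLM monocyte values were 3.12, 2.53 and 2.51 times the T cell level.

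In cDC2, the dendritic subset specialised for CD4+ T cells, H2-Ab1 was at 10945 CPM in BLM and 14077 in naive, and H2-Eb1 at 5436 and 8247. This cluster scored highest for plasmacytoid dendritic cell markers and was named cDC2 by its leading genes, so it may be mixed. Its 6 plasmacytoid markers summed to 606 CPM in BLM and 1069 in naive, and its 7 cDC2 markers to 8748 and 6329. The part of such cells in any cDC2 value was not tested. In cDC1, the cross-presenting subset, H2-Ab1 was at 11576 and 14217 CPM. For the chains and Cd74 the log2 ratios lay between -0.60 and -0.27 in cDC2 and between -0.49 and -0.09 in cDC1. None of 10 members in cDC2 (5.08% of genes higher, 7.68% lower) was past 2-fold, and in cDC1 (6.53% and 8.74%) 1 was, H2-Oa. B cells had H2-Ab1 at 4369 and 4531 CPM and H2-Aa at 4664 and 5018, with log2 ratios of -0.05 and -0.11, and no member was past 2-fold (1.44% of genes were higher and 5.0% lower). In nonclassical monocytes none of 9 members was past 2-fold (2.61% and 5.25%). T cells had 2 members past 2-fold lower, H2-Ab1 (98.6 and 221 CPM) and H2-DMb2 (2.59% of genes were higher and 3.79% lower). Neutrophils had H2-DMb2 lower (3.82% and 6.74% of genes) and NK cells H2-Eb1 (1.75% and 7.11%). The Sparc, Eln and Tm4sf1 cluster had 5 of 7 members lower (9.53% and 8.63% of genes), with H2-Ab1 at 334 and 1131 CPM. This cluster scored next highest for basophil or mast cell markers, and its make-up differed between the libraries. In BLM and naive, its 8 stromal or endothelial markers summed to 27341 and 13052 CPM, 7 basophil or mast cell markers to 1680 and 6435, and 12 alveolar macrophage markers to 2130 and 5766. Their part in the lower members was not tested.

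Set against H2-Ab1, H2-Eb1 was lower in BLM in most classes. Its UMIs per H2-Ab1 UMI were 0.479 in BLM and 0.547 in naive B cells, 0.497 and 0.586 in cDC2, and 0.503 and 0.601 in interstitial or recruited macrophages. The ratio was lower in BLM in 9 of 11 classes, and the interval of the change lay below 0 in 7. H2-Eb2, a relative of H2-Eb1 that is not among the 10, was at 215 and 160 CPM in B cells and 243 and 415 in migratory dendritic cells, and at 0.61 to 29.0 CPM in cDC1, cDC2 and the 2 compared macrophage classes. Between the transcripts of H2-Eb1 and H2-Eb2, 74.4% of aligned bases were identical.

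Cd74, whose product also serves as a receptor for the cytokine MIF, showed the largest difference of the members in alveolar macrophages. It was at 1999 CPM (1965 to 2033) in BLM and 396 (380 to 412) in naive, for a log2 ratio of 2.34 (2.27 to 2.40). In B cells it was at 7680 and 6583 CPM, for a log2 ratio of 0.22 (0.19 to 0.26), while the chains were level or lower. In interstitial or recruited macrophages it was at 4832 and 8567 CPM, and in classical monocytes at 550 and 1312. Set against the I-A chains of the same cells, Cd74 was higher in BLM in all 11 classes, with the interval of the change above 0 in 10, the exception being the Sparc, Eln and Tm4sf1 cluster. Cd74 UMIs per UMI of H2-Aa plus H2-Ab1 came to 0.846 in BLM against 0.569 in naive for alveolar macrophages, 0.850 and 0.689 in B cells, 0.630 and 0.524 in cDC1, and 0.733 and 0.623 in interstitial or recruited macrophages. In T cells the ratio was 0.584 and 0.417, so it also differed in a class taken as free RNA, and the part of free RNA in the other classes was not tested.

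The 3 H2-DM genes differed from each other in alveolar macrophages. H2-DMa, the alpha chain of the editor, was at 237 CPM (225 to 249) in BLM and 242 (230 to 255) in naive alveolar macrophages, for a log2 ratio of -0.03 (-0.14 to 0.07), and at 0.17 after median of ratios scaling, which flips the sign. Naive alveolar macrophages already stood at 8.83 times the T cell level for H2-DMa and 7.20 times for H2-DMb1, with the chains near that level. H2-DMb1, a beta chain gene, was at 259 and 80.6 CPM there, for a log2 ratio of 1.68 (1.54 to 1.83). H2-DMb2, the other beta chain gene, was at 24.96 and 39.2 CPM, for a log2 ratio of -0.65 (-0.95 to -0.36). T cells had 16 UMIs of H2-DMb2 among 2088934 in BLM and 36 among 1785461 in naive. The part of that higher naive level in the H2-DMb2 difference was not tested. Per UMI of the 3 chains, the H2-DM genes together gave 0.435 UMIs in naive and 0.186 in BLM alveolar macrophages, and were higher in BLM in interstitial or recruited macrophages (0.0865 and 0.0510) and classical monocytes (0.307 and 0.103).

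In classical monocytes the intervals of the H2-DM ratios included 0 while the chains were lower. H2-DMa was at 127 and 156 CPM and H2-DMb1 at 79.5 and 83.3, with log2 ratios of -0.29 (-0.72 to 0.12) and -0.07 (-0.63 to 0.48). In interstitial or recruited macrophages H2-DMa was at 314 and 455 CPM, H2-DMb1 at 354 and 309, and H2-DMb2 at 51.4 and 159. Only H2-DMb2 was past 2-fold among them, with a log2 ratio of -1.63 (-1.97 to -1.28).

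The beta chain genes of H2-DM divided the classes. H2-DMb2 had 11.1 UMIs per UMI of H2-DMb1 in naive B cells (9.75 to 12.7) and 8.60 in BLM (7.46 to 9.94). In cDC2 the ratio was 1.46 and 2.01, in cDC1 0.349 and 0.453, and in migratory dendritic cells 1.47 (0.727 to 3.04) and 4.16 (2.67 to 6.72), each naive first. The ratio was lowest in BLM macrophages, where alveolar macrophages had 0.487 in naive and 0.0965 in BLM, and interstitial or recruited macrophages 0.515 and 0.145. B cells of both libraries thus held mostly H2-DMb2, and cDC1 and macrophages mostly H2-DMb1, and in macrophages the change of the ratio from naive to BLM was -2.33 and -1.83 on the log2 scale. The transcripts of both genes are 1404 and 1424 bases long, 94.4% of aligned bases were identical, and the longest identical run was 221 bases, so some reads could have been assigned to either gene and the ratios are uncertain to that extent.

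**Figure D3:**
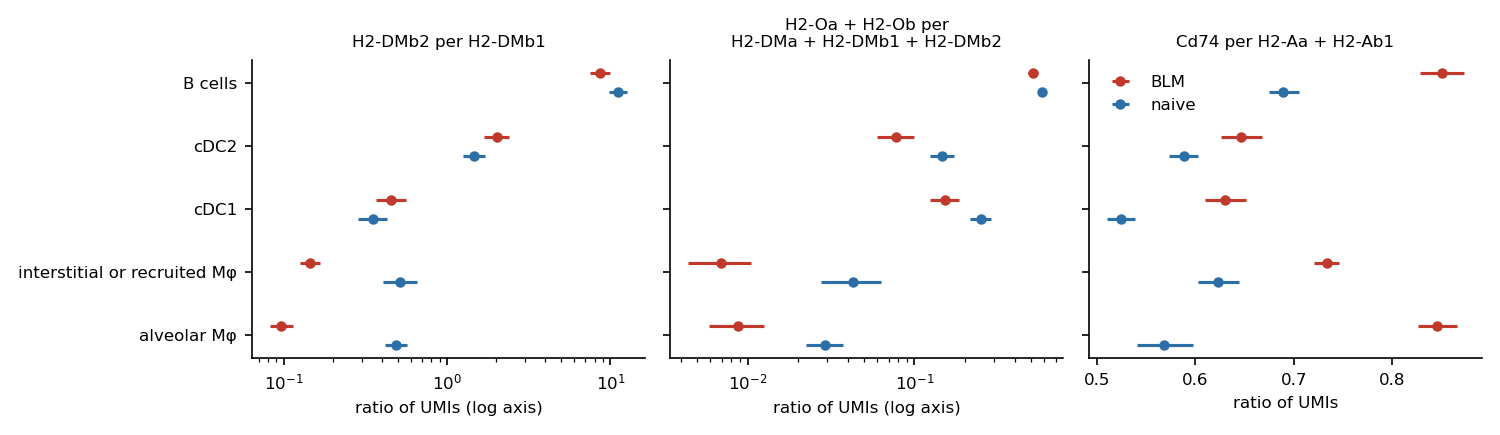
UMIs of H2-DMb2 per UMI of H2-DMb1 (left, log axis), of H2-Oa plus H2-Ob per UMI of the 3 H2-DM genes (middle, log axis) and of Cd74 per UMI of H2-Aa plus H2-Ab1 (right, linear axis that does not start at 0) in 5 cell classes of the BLM (red) and naive (blue) library, with 95% counting intervals. B cells of both libraries have the highest values of the first 2 ratios and BLM macrophages the lowest, and the third ratio is higher in BLM in all 5 classes.

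H2-O transcripts were found mainly in B cells and dendritic cells. H2-Ob, the beta chain of the inhibitor, was at 837 CPM in BLM and 910 in naive B cells, 208 and 360 in cDC1, and 86.2 and 160 in cDC2. H2-Oa, the alpha chain, was at 103 and 117 CPM in B cells, 29.7 and 76.5 in cDC1, and 58.9 and 96.1 in cDC2. In B cells the log2 ratio was -0.12 (-0.23 to -0.01) for H2-Ob and -0.18 (-0.50 to 0.13) for H2-Oa. In cDC1 it was -0.79 (-1.15 to -0.43) and -1.36 (-2.35 to -0.47), and in cDC2 -0.89 (-1.45 to -0.36) and -0.71 (-1.40 to -0.04). All 20 values of the pair in alveolar and interstitial or recruited macrophages, monocytes and neutrophils were below the T cell level of the same library. The lower BLM values there, such as H2-Ob at 4.14 and 36.3 CPM in interstitial or recruited macrophages, therefore lie below the T cell level. Whether they came from free RNA was not tested. The 8 B cell markers summed to 30.05 CPM in BLM and 188 in naive in that class, and their part in the difference was not tested. Neutrophils, also taken as a free RNA level, are among the 20 values, so for this pair T cells gave a higher level than neutrophils.

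Among the classes with class II RNA well above the T cell level, H2-O per UMI of H2-DM was highest in B cells, with 0.511 UMIs in BLM (0.477 to 0.547) and 0.578 in naive (0.548 to 0.611). The ratio was 0.152 and 0.249 in cDC1, 0.0778 and 0.146 in cDC2, 0.00697 and 0.0426 in interstitial or recruited macrophages and 0.00877 and 0.0290 in alveolar macrophages. It was lower in BLM in 9 of 11 classes, with the interval of the change below 0 in 5: B cells, both dendritic subsets and both macrophage classes. In the macrophages its numerator was below the T cell level. T cells had a higher ratio than B cells, 0.793 (0.563 to 1.11) and 0.933 (0.701 to 1.24). Neutrophils had 0.220 (0.0938 to 0.459) in BLM and 0.231 (0.0983 to 0.484) in naive. NK cells had 0.389 (0.137 to 0.976) and 0.265 (0.112 to 0.564), and in naive the intervals of both classes lay below that of T cells. The levels of both complexes in T cells are taken here as free RNA, but whether free RNA gives such a ratio was not tested.

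Ciita was read in few UMIs and was highest in dendritic cells and B cells. It was at 181 CPM (144 to 223) in BLM and 222 (185 to 265) in naive cDC1, 191 and 148 in cDC2, and 196 and 199 in B cells. The BLM intervals of these 3 classes overlapped, and in naive the interval of cDC2 (120 to 181) lay below that of cDC1. Interstitial or recruited macrophages had 55.1 CPM (48.5 to 62.3) in BLM and 80.2 (60.1 to 105) in naive, which overlap. Alveolar macrophages had 26.3 CPM (22.6 to 30.6) in BLM and 9.69 (7.37 to 12.5) in naive, for a log2 ratio of 1.44 (1.01 to 1.89), from 173 and 59 UMIs. T cells had 2.87 and 3.92 CPM, from 6 and 7 UMIs. In classical monocytes Ciita was past 2-fold lower in BLM, from only 5 UMIs in BLM and 18 in naive. Per UMI of the chains, Ciita in alveolar macrophages was 0.00938 in BLM and 0.0116 in naive, a change of -0.31 (-0.74 to 0.12) on the log2 scale.

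The B cell class was made of 2 clusters. In the larger, with 468 BLM and 622 naive cells, the members summed to 25284 and 25807 CPM. The smaller, with 167 and 199 cells, had 17463 and 15783 CPM. H2-Ob was at 1040 and 1172 CPM in the larger cluster and 587 and 546 in the smaller, and Ciita at 239 and 241 against 144 and 140.5. Cd74 was higher in BLM in both, with log2 ratios of 0.25 (0.20 to 0.30) and 0.21 (0.15 to 0.28). Across all B cells, 7 plasma cell markers summed to 361 CPM in BLM and 3344 in naive, and the part of such cells was not tested.

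Migratory dendritic cells, with 69 BLM cells and only 16 naive cells, kept Cd74 at 6626 and 8946 CPM with H2-DMa at 95.3 and 92.3. In cDC2 the same genes were at 12604 and 15148, and at 612 and 629 CPM. Against cDC2, H2-DMa was lower in migratory cells by more than Cd74 in both libraries. Ciita per UMI of the chains was 0.00772 in migratory cells and 0.00768 in cDC2 of BLM, and 0.00403 and 0.00435 in naive. Dendritic cells of the migratory kind are known to stop making new class II, and a link with these values was not tested. The naive values rest on 16 cells.

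From cell to cell, class II RNA was even in B cells and uneven in macrophages. The shares per cell are those of H2-Aa, H2-Ab1, H2-Eb1 and Cd74 together, without the other members. The middle cell of BLM alveolar macrophages gave 0.302% of its UMIs to these genes, with 0.0664% at the 25th and 1.33% at the 90th percentile. In naive alveolar macrophages the same points were 0.0753%, 0.0533% and 0.222%. The libraries were thus close at the 25th percentile and differed by more above it. Interstitial or recruited macrophages had a median of 1.02% in BLM and 2.01% in naive, with a 25th percentile of 0.107% and 0.144%. B cells had medians of 2.04% and 2.09% and 10th percentiles of 1.16% and 1.17%. In the cDC2 class the medians were 4.12% in BLM and 5.29% in naive, and the 10th percentiles 0.103% and 0.893%. In naive classical monocytes the median was 0.0853% and the 90th percentile 1.02%, against 0.0335% and 0.134% in BLM.

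**Figure D4:**
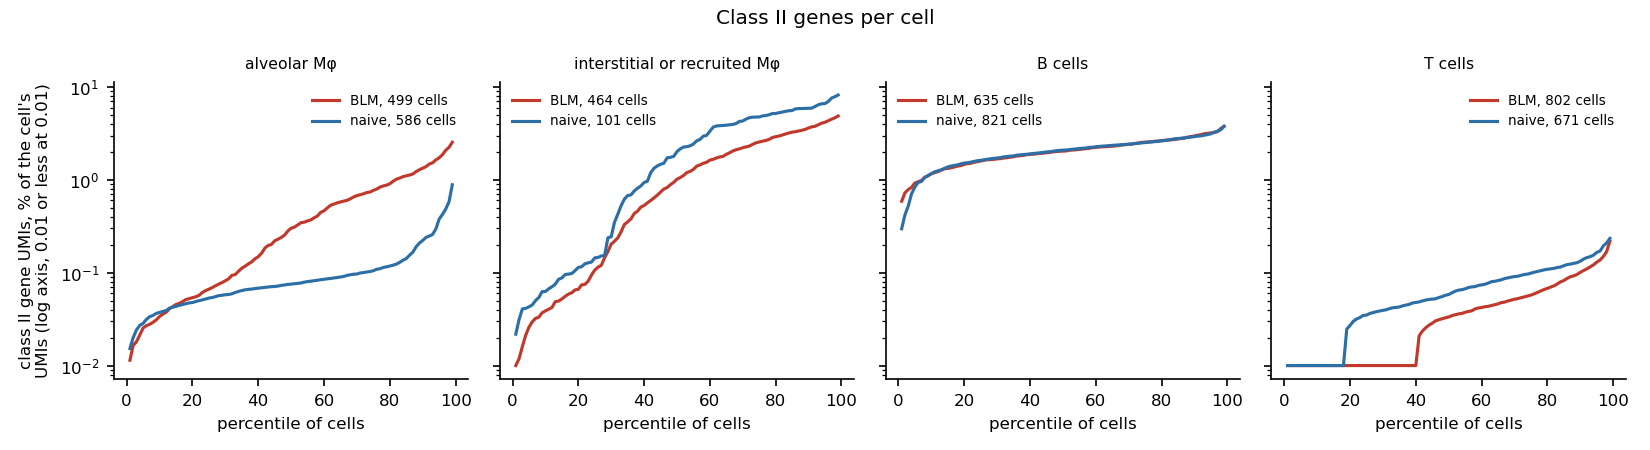
Share of each cell's UMIs that came from H2-Aa, H2-Ab1, H2-Eb1 and Cd74 together, against the percentile of cells in 4 classes. The axis is in percent on a log scale, with values of 0.01 or less drawn at 0.01, BLM in red and naive in blue. The curves of B cells lie on each other, those of alveolar macrophages part above about the 25th percentile, and T cells show the level taken as free RNA.

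Shares of cells with a UMI gave the same order where depth was equalised to 1000 UMIs per cell. For H2-Ab1, 51.4% of BLM and 24.6% of naive alveolar macrophages were expected to hold a UMI at that depth, against 9.63% and 19.7% of T cells. At full depth these shares were 93.4% and 87.7% of alveolar macrophages, and 22.4% and 41.4% of T cells. H2-DMb1 was in 22.3% and 7.65% of alveolar macrophages at the equal depth, against 1.06% and 0.999% of T cells, while H2-DMa was in 21.6% and 21.7%.

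Macrophages were clustered again to see where the members varied. Sub-cluster 2, led by Tnip3, Mefv and Retnla, had the most class II RNA apart from a small sub-cluster led by dendritic genes, with H2-Ab1 at 5699 CPM in 219 BLM cells and 10583 in 36 naive cells. Sub-cluster 5, led by Ccl8, Cd163 and Lyve1, genes of resident interstitial macrophages, had H2-Ab1 at 1058 CPM in 82 BLM cells and 4690 in 64 naive cells, for a log2 ratio of -2.15 (-2.28 to -2.02). Cd74 was at 1830 and 5965 CPM there. The interstitial or recruited class drew 215 BLM and 34 naive cells from sub-cluster 2, 82 and 64 from sub-cluster 5, and 117 BLM and no naive cells from sub-cluster 3, led by Mmp12, Gpnmb and Syngr1. The make-up of the class thus differed between the libraries, and class II RNA was lower in BLM within sub-clusters 2 and 5. Cd209a, a cDC2 marker, was at 23.5 CPM in BLM and 458 in naive within sub-cluster 2, and at 91.9 and 40.5 within sub-cluster 5, and its part was not tested. For sub-cluster 2 the sum of members was 22829 and 39697 CPM, and for sub-cluster 5 it was 4789 and 18588.

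Sub-clusters 0, 1, 3 and 4, which held most of the alveolar class, all showed the opposite direction. Only sub-clusters 0 and 1 were made almost wholly of alveolar cells in both libraries. Sub-cluster 3 held 50 alveolar and 117 interstitial or recruited cells in BLM against 51 alveolar cells in naive, and sub-cluster 4 held 47 and 43 against 115 and 2, so these 2 compare cells of different classes. C1qa, a gene of interstitial macrophages, was at 1229 CPM in BLM and 8.25 in naive in sub-cluster 3, and at 138 and 6.01 in sub-cluster 0. H2-Ab1 was at 1857 CPM in BLM and 363 in naive in sub-cluster 0, led by Cav1, Gal and Epcam, and at 846 and 261 in sub-cluster 1, led by Marco, Prom1 and Ch25h. It was at 1149 and 350 in sub-cluster 3 and at 2332 and 375 in sub-cluster 4, which was led by Txnip and Stat2. The log2 ratios of the member sum were 2.16, 1.56, 1.86 and 2.31. H2-DMa stayed between -0.18 and 0.36 on the log2 scale in these 4 sub-clusters, and H2-DMb1 between 1.42 and 2.01. The small sub-cluster led by dendritic genes such as Xcr1 and Flt3 held 10 BLM and 20 naive cells and is left out of the plot of sub-clusters.

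**Figure D5:**
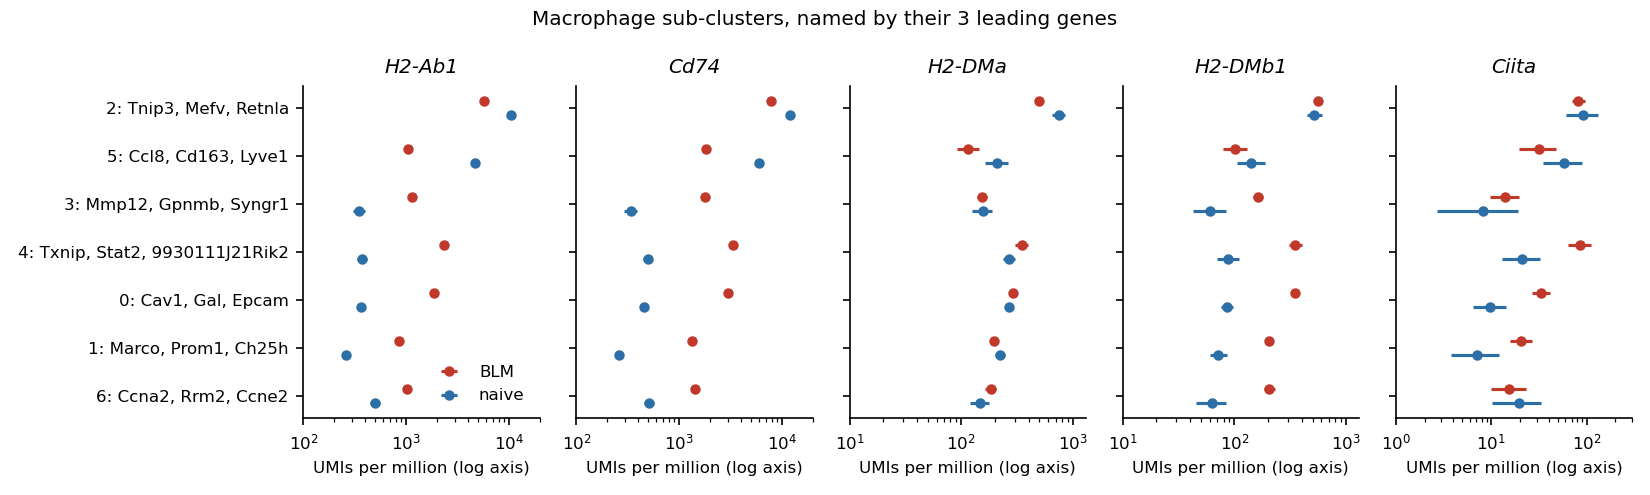
Level of 5 members (CPM, log axis) in 7 macrophage sub-clusters, each given with 3 leading genes, in BLM (red) and naive (blue) with 95% counting intervals. H2-Ab1 and Cd74 are higher in naive in sub-clusters 2 and 5 and higher in BLM in the other 5, and H2-DMa differs less between the libraries than H2-DMb1 in sub-clusters 0, 1, 3 and 4.

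The other genes of the pathway, a list of 26 that were measured, gave 210 values with 20 or more UMIs over the 11 classes, of which 12 were past 2-fold higher and 16 lower in BLM. These are 5.71% and 7.62%, close to the 4.66% and 7.27% over all genes. Proteases that cut the invariant chain were among the higher ones in macrophages. Ctss, cathepsin S, in alveolar macrophages was at 8308 CPM in BLM and 3964 in naive, and Lgmn, legumain, at 323 and 99.5. In interstitial or recruited macrophages Ctss was at 7429 and 1768 CPM and Ctsl, cathepsin L, at 904 and 142, with log2 ratios of 2.07 and 2.67, while the chains there were lower. Sppl2a, which removes the last fragment of the invariant chain, was at 313 and 304 CPM in alveolar macrophages, for a log2 ratio of 0.04. Of the 4 processing genes, 3 in alveolar macrophages (6.27% of all genes) and 2 in interstitial or recruited macrophages (8.03%) were past 2-fold higher.

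Among genes of class II turnover, Cd83, which opposes the ubiquitination of class II by MARCH1, was lower in BLM. It was at 79.0 and 207 CPM in alveolar macrophages and 717 and 2405 in interstitial or recruited macrophages, with log2 ratios of -1.39 and -1.75. March1 was at 78.2 and 53.9 CPM in alveolar macrophages and was not past 2-fold. None of the 7 promoter factors was past 2-fold in alveolar macrophages, and their media log2 ratio was -0.17, against -0.21 for all genes tested. Of 8 regulators of Ciita tested in alveolar macrophages, 1 was past 2-fold higher (6.27% of all genes) and 1 lower (9.98%). Irf1, at 43.8 and 51.7 CPM there, was neither of these. In interstitial or recruited macrophages 1 of 9 was lower (11.2%) and 0 higher (8.03%). That was Irf1, at 59.0 and 148 CPM, for a log2 ratio of -1.33 (-1.67 to -0.98). In classical monocytes 1 of 7 was higher (3.83%) and 0 lower (4.99%). Ifng itself had under 20 UMIs in both macrophage classes.

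Over the 22 points given by 11 classes in 2 libraries, the genes outside the members whose level followed their mean most closely were Cd86 (Pearson r of 0.894) and Cd40 (0.891), which encode costimulatory molecules, then Kmo (0.890), Gdi2 (0.857) and Plekho1 (0.853), of 6261 genes ranked. The points share libraries and depth, so this is a description of these classes. Cd86 was highest in naive cDC1, at 497 CPM, and Cd40 in naive cDC2, at 175.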

How the data were processed

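Living CD45+ lung cells were captured with BD Rhapsody whole transcriptome beads, with 1 library per group. The deposited values are counts of UMIs per gene and cell, made by the authors with the BD Rhapsody analysis pipeline 1.8 on GRCm38 and corrected for UMI errors, per the file headers. A gene with no column in a table was taken as 0. Cells with at least 200 genes and at most 15% mitochondrial UMIs were kept, and the highest 3% of Scrublet scores were left out (135 BLM and 117 naive cells). The automatic Scrublet threshold marked 8 and 61. Libraries were integrated and clustered in Seurat 5.3.0 (2000 variable genes without the members, 30 dimensions, resolution 0.5). Kept cells had medians of 2380 and 2700.5 UMIs.

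Counts were summed per class and library and given as CPM with exact Poisson intervals. Log2 ratios have exact conditional intervals and shares have exact binomial intervals (scipy 1.17.1). The functions were tested on simulated data. With 1 library per group no test was run. All 10 members were measured in every compared class, but values are given here for only part of them. Pathway genes were named mainly where past 2-fold, and 5 genes by correlation on the log2(CPM + 10) scale. Members, markers and lists were chosen with earlier results of these data known. H2-Ea, H2-Ea-ps and Ifi30 were not analysed here. A gene of the pathway list is not reported here. Alternatives covered integration, clustering, filters and scaling.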

Additional observations from a re-analysis of the deposited data

Results flagged for a closer look

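The sum of the 10 class II genes pointed in opposite directions in cells of the myeloid lineage. Its log2 ratio of BLM over naive was 1.73 in alveolar macrophages, -0.99 in interstitial or recruited macrophages and -1.43 in classical monocytes. With 1 library per group the difference between these classes was not tested.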

How the results depend on the processing

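Values here are log2 ratios of the member sum, BLM over naive, unless said otherwise. Without integration they were -0.039 in B cells, -1.51 in interstitial or recruited macrophages and -1.18 in classical monocytes. The interstitial or recruited class of that setting took in BLM cells otherwise called alveolar, so its value is not for the same cells. That setting gave no value for alveolar macrophages, since the alveolar cluster held no BLM cell, and 0 members past 2-fold higher. With the members kept among the variable genes the ratio was -0.97 in interstitial or recruited macrophages and -0.78 in classical monocytes. It was 1.79 in alveolar macrophages at resolution 0.3, where classical monocytes gave no value, and -1.17 in classical monocytes at resolution 0.8. A mitochondrial limit of 10% gave -0.74 in classical monocytes. With no doublets left out, B cells had -0.083, interstitial or recruited macrophages -0.80, classical monocytes -1.24 and cDC2 -0.43. Median of ratios scaling gave 1.93 in alveolar macrophages, -0.85 in interstitial or recruited macrophages and -0.44 in cDC2, and the mean of per-cell CPM gave 1.89, -0.83 and -0.45 there and -0.012 in B cells. Added after seeing the data, all macrophages together, cycling macrophage-like cells included, gave 0.70, which is opposite in sign to the interstitial or recruited class alone. Leaving out cells with a dendritic or B cell marker UMI gave 1.88 in alveolar and -0.94 in interstitial or recruited macrophages. Subtracting the T cell level gave 2.64 in alveolar macrophages and -1.64 in classical monocytes. The cause of these shifts was not tested. Of 28 single members past 2-fold, 25 remained so under median of ratios scaling, which changed the sign of H2-DMa in alveolar macrophages and Cd74 in neutrophils. That scaling moved the median gene by -0.20 in alveolar and -0.15 in interstitial or recruited macrophages. No paired analysis was possible because each group had 1 library.

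Library, run and treatment cannot be told apart, and counting intervals do not cover the spread between mice. Depth limited Ciita, H2-Oa and H2-Ob outside B cells and dendritic cells. H2-DMb1 and H2-DMb2 share long identical runs.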
